A study of Mus musculus with 16 samples.

Results

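The replication-dependent histone genes of mouse T cells that had entered melanoma tumors were described in total RNA libraries. The members were all rows of the deposited count table with the gene type protein_coding and a gene name that begins with Hist1h, Hist2h, Hist3h or Hist4h, which gave 67 of 55450 genes: 6 for the linker histone H1, 18 for H2A, 18 for H2B, 12 for H3 and 13 for H4. The rule used names only, and 3 pseudogenes with such names (Hist1h2aj, Hist3h2bb-ps and Hist1h2al) were left out. Of the 67 members, 66 had a count in at least 1 library, 58 passed the filter on low counts in all 4 comparisons between groups, and 8 passed it in none.

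Tumor-infiltrating lymphocytes (TILs) were taken from tumors of B16F10, a melanoma cell line of C57BL/6 origin, grown under the skin of wild-type (WT) C57BL/6J mice or of Sirt2-/- mice, labelled Sirt2KO, of the strain B6.129-Sirt2tm1.1Fwa/J. Sirt2 encodes a deacetylase, and the allele is carried by every cell of the mouse rather than by T cells alone. The mice were 7 to 8 weeks old, controls were matched for age and sex, and the labels name no other agent. CD4+ and CD8+ TILs of each genotype gave 4 libraries each, 16 in all. TILs were prepared on Percoll and enriched for CD3ε, and how CD4+ and CD8+ cells were then parted is not given in the sources used here.

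Core histones H2A, H2B, H3 and H4 form the protein spool of the nucleosome, and H1 binds the DNA between spools. Cells need new histones while they copy their DNA, and the genes described here are transcribed mainly in S phase, in clusters that hold many near-identical copies. Their mRNAs are the only mRNAs of animal cells that normally lack a poly(A) tail: they end in a short stem-loop bound by SLBP, the protein that carries them through processing, translation and decay, and libraries made from total RNA can therefore show them where poly(A)-selected libraries show little.

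The stem-loop is the feature that sets these mRNAs apart, and its letters were read from the GENCODE M21 transcripts (GRCm38). A stem-loop of 16 bases stood 24 to 61 bases after the stop codon (median 34) in 46 of the 67 members. A match at any place in a protein-coding transcript was held by 69 of 21901 protein-coding genes, of which 46 were members. For the other genes its place was not checked. Of the 21 members without a match, 17 had fewer than 60 annotated bases after their coding part. Members that the results turn on are shown, with Hist1h3g and Hist1h4b added for their letters. The stem-loop is in capitals with 5 flanking bases on each side, 5′ to 3′, written as DNA.
Hist1h1c: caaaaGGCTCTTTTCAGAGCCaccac
Hist1h1d: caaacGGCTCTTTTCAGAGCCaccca
Hist2h2ac: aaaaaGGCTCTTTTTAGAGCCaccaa
Hist3h2a: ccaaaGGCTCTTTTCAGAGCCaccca
Hist1h2bb: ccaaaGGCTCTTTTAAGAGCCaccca
Hist1h3b: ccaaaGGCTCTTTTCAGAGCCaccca
Hist1h3g: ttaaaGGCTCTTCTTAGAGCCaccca
Hist1h4b: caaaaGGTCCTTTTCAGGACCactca
Hist1h4d: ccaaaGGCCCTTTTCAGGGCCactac
Hist1h4h: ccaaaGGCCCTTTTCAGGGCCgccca
Hist4h4: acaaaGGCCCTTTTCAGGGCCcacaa
The 34 matched members of H1, H2A, H2B and H3 shared the stem and differed only in the 4 loop bases, and 26 of them read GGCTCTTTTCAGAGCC. The 12 matched H4 members differed from these in the stem: 7 read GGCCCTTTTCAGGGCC, 3 kept that stem with another loop, and 2, Hist1h4b among them, read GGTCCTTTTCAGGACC. Hist1h1b and Hist1h2an, described with the values, have no annotated bases past the stop codon in which to find a loop.

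The members lay in 4 places of the genome (GRCm38): 54 on chromosome 13 between 21715763 and 23934851, 10 on chromosome 3 between 96219865 and 96270132, 2 on chromosome 11 between 58948920 and 58956830, and Hist4h4 alone on chromosome 6 at 136801553 to 136804415. An intron was absent from 62 of them, and the exon length ranged from 312 to 7425 bases with a median of 539. RefSeq promoters (GRCm38.p6) were matched for 62 members. In the 250 bases before the start, the letters CCAAT, read on both strands, stood in 82.3% of the matched members and in 33.8% of 32851 RefSeq promoters of the same length. TATAAA stood in 46.8% of members and 12.4% of promoters, and the octamer ATTTGCAT in 21% and 1.6%, and none of the 3 motifs holds the letters of another. CCAAT was in every matched promoter of H1, H2A and H2B and in 8 of 10 for H3, but in 3 of 12 for H4, and the octamer was found in 7 H2A and 6 H2B members and in no other class. A match is a run of letters and not a shown binding site. Neighbouring H2A and H2B genes can have overlapping windows, as Hist1h2ae (chr13:23571221-23571470) and Hist1h2bg (chr13:23571150-23571399) do. A motif in such a stretch can count for both members, so the shares are not over separate stretches of DNA.

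Promoters of 3 members are printed with the letters of the 3 motifs, on either strand, in capitals.
Hist1h1b (chr13:21780626-21780875, minus strand): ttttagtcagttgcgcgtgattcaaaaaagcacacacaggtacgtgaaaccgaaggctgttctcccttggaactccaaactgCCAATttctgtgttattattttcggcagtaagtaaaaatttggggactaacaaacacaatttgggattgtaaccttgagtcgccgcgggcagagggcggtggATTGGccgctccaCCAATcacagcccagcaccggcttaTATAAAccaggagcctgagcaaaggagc
Hist1h1c (chr13:23738557-23738806, plus strand): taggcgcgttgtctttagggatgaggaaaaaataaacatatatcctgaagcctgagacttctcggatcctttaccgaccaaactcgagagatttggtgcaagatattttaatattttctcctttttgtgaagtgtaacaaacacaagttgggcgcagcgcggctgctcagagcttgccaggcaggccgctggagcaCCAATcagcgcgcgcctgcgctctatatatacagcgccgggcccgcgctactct
Hist1h2bb (chr13:23746484-23746733, plus strand): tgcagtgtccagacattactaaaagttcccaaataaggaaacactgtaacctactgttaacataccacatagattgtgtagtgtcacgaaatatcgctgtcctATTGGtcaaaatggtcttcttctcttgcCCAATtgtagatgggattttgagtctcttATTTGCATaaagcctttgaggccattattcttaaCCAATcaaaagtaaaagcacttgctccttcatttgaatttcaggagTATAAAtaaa
Hist1h1b and Hist1h2bb are printed because they passed the test between CD8+ and CD4+ TILs in at least 1 fit, and Hist1h1c for contrast, since it passed in none although its promoter holds such letters too. With the low-detection libraries described next left out, the median log2 difference of CD8+ over CD4+ in tested members with the CCAAT letters was 1.20 in WT and 1.39 in Sirt2-/-, and in those without them 0.97 and 1.27, given as a description only.

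Library totals ranged from 28000949 to 62407851 counts. Genes with at least 1 count numbered 17730 to 22138 in 13 libraries, but only 8169 in Sirt2-/- CD4+ replicate 4. The first WT replicate of either cell type was low too, with 12587 genes in CD4+ and 14411 in CD8+. These 3 are called low-detection libraries, and the counts and medians over members are given with and without them. In Sirt2-/- CD4+ replicate 4, 27 of 53 members that averaged at least 100 counts in the other libraries were at 0 (50.9%), against 34.9% of all genes of that level, whereas 4 of 53 (7.55%) were at 0 in WT CD4+ replicate 1, against 7.26% of all genes of that level. Cd4 was highest in CD4+ and Cd8a in CD8+ libraries, and Cd3e was present in all 16. Sirt2 counts were 553, 433, 469 and 0 in Sirt2-/- CD4+ and 322 to 448 in Sirt2-/- CD8+ libraries, against 1196 to 2272 in WT libraries, with log2 fold changes of -2.60 (adjusted p = 1) in CD4+ and -2.22 (adjusted p = 0.00663) in CD8+ TILs by edgeR.

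The 67 members together took 0.130% to 0.377% of a library's counts. Their summed level, in counts scaled to the TMM-adjusted library total (CPM), was 2353, 2090.2, 1631 and 1761 in WT CD4+ replicates 1 to 4 and 1635, 1526, 1835 and 1447 in Sirt2-/- CD4+. The same sum was 1706, 3762, 2320.1 and 3202 in WT CD8+ and 2655, 2839.6, 3680.2 and 2930.0 in Sirt2-/- CD8+. In Sirt2-/- mice every CD8+ library stood above every CD4+ library, and in WT mice the groups overlapped through replicate 1 of both cell types, the low-detection libraries. Group means were 1959 ± 326 and 1611 ± 168 CPM in CD4+ and 2747 ± 914 and 3026 ± 451 CPM in CD8+ TILs of WT and Sirt2-/- mice (SD, n = 4 each). In bulk RNA, fewer cells in S phase and less histone RNA per cell cannot be told apart.

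**Figure D1:**
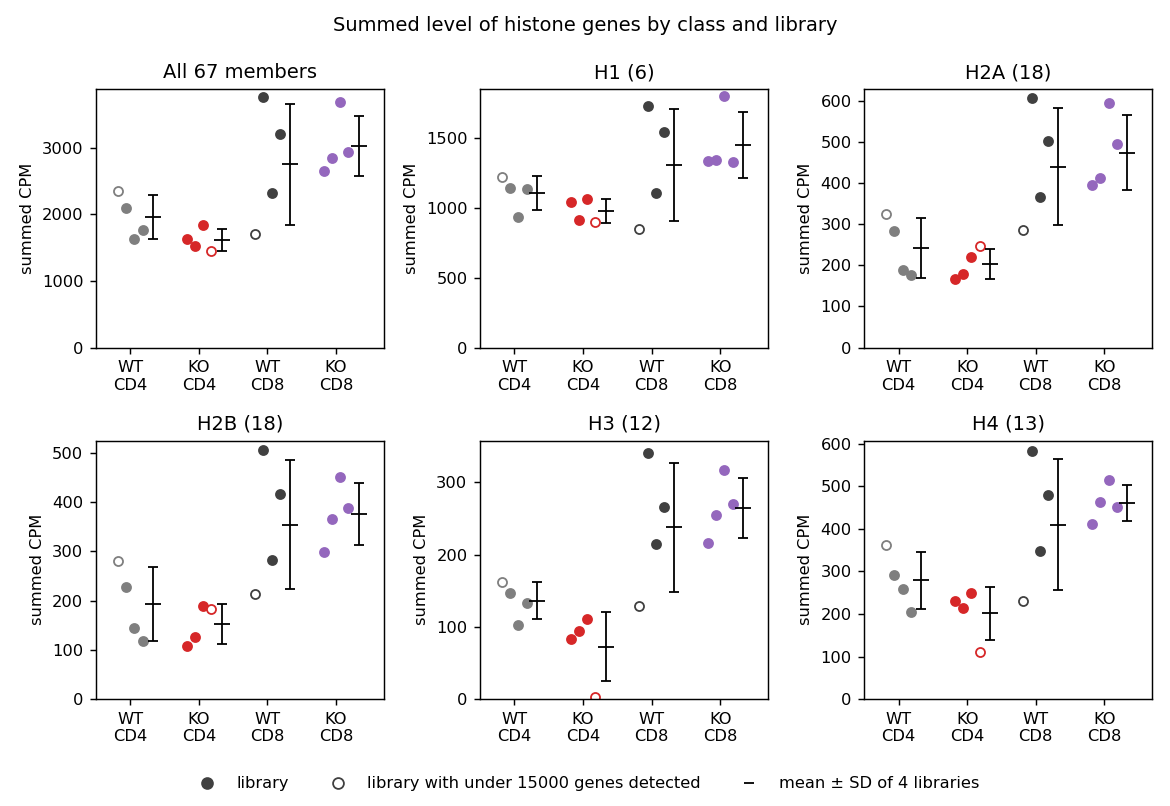
Summed CPM of all 67 members and of each class in every library (points) of the 4 groups, with the group mean and SD (bars, n = 4), and open points for libraries with under 15000 genes detected. Every Sirt2-/- CD8+ library lies above every Sirt2-/- CD4+ library in each class, while the sum over all members in WT CD8+ replicate 1 falls among the CD4+ libraries.

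The linker histone H1 held most of the summed member CPM in CD4+ TILs. The class shares given here are not corrected for exon length or for reads lost to shared copies, which differ between classes. H1 members made up 57.1% ± 5.31 of the summed member CPM in WT CD4+ and 61% ± 2.64 in Sirt2-/- CD4+ libraries, but 47.9% ± 1.56 and 48% ± 2.16 in WT and Sirt2-/- CD8+ libraries (SD, n = 4). The lowest H1 share among CD4+ libraries, 52.0%, was above the highest among CD8+ libraries, 50.2%, although the sums themselves overlapped. Each core class held a larger mean share in CD8+ than in CD4+ TILs of both genotypes. H3 was the smallest class, with 6.92% ± 0.513 in WT CD4+ and 8.54% ± 0.781 in WT CD8+, and 4.37% ± 2.82 and 8.72% ± 0.468 in the same cells of Sirt2-/- mice.

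A few members carried each class. The 3 most abundant held 89.7% of H1, 66.9% of H4, 55.7% of H3, 53.6% of H2A and 51.5% of H2B, and 36 members averaged over 10 CPM while 11 averaged under 1 CPM. Per kilobase of exon, averaged over all 16 libraries, the level was highest for Hist1h1c (371 CPM per kb), and its group mean was the highest in each of the 4 groups. Hist1h2ak, Hist2h2ac, Hist1h4d, Hist1h1e and Hist1h1b lay between 132 and 152 CPM per kb, and their order differed from group to group. The median member stood at 84.1 CPM per kb for H1, 19.3 for H4, 17.3 for H3, 14.4 for H2A and 11.5 for H2B. Copies limit these levels: in 28 members more than 50% of the 100-base windows of the transcript occur in another gene, in 5 members all do, and how reads with several matches were counted is not given in the sources used here. The levels per kilobase also rest on annotated exon lengths, which ranged from 312 to 7425 bases. Hist1h1d, at 228 CPM on average, was at 30.7 CPM per kb over its 7425 annotated bases.

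CD8+ TILs held more histone RNA than CD4+ TILs in most members, in both genotypes. In WT mice the summed level was 1.4-fold higher in CD8+ than in CD4+, and 1.69-fold without the low-detection libraries. Among Sirt2-/- libraries it was 1.88-fold higher, and 1.82-fold without Sirt2-/- CD4+ replicate 4. The fold was smaller for H1 than for each core class with and without those libraries: without the low-detection libraries, the WT folds were 1.36 for H1, 2.28 for H2A, 2.45 for H2B, 2.16 for H3 and 1.87 for H4, and the Sirt2-/- folds 1.44, 2.51, 2.66, 2.75 and 1.99. These are ratios of group means of summed CPM, given without a test, and the largest part of the H1 sum was Hist1h1c, described below. By the median log2 fold change over members, H1 was not the lowest class without the low-detection libraries. It was at 0.98 in WT and 1.17 in Sirt2-/-, against 0.83 and 1.08 for H4. The medians with all libraries were 0.75 and 0.92 for H1 and 0.54 and 1.24 for H4.

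Each member was tested with edgeR's quasi-likelihood test fitted on all genes past the filter, with Benjamini-Hochberg adjusted p-values over all of them and a threshold of 0.05. With all libraries, 2 of 59 tested members were higher in WT CD8+ than WT CD4+ TILs, Hist1h2an and Hist1h1d, and none was lower (4.89% of 14892 genes were called higher and 6.96% lower). For the Sirt2-/- groups 3 of 59 were higher, Hist1h1b, Hist1h4d and Hist2h2ac, and none was lower (0.918% of 15787 genes higher, 1.32% lower). The 2 calls in WT were no larger a share than the background. The direction was nevertheless shared by most members: 51 of 59 had a log2 fold change above 0 in WT (48.6% of all genes) and 56 of 59 in Sirt2-/- (58.4%), and the median over members was 0.74 and 1.59 against medians over all genes of -0.023 and 0.16. The CD8+ and CD4+ libraries did not overlap, with CD8+ higher, for 10 of 59 members in WT (12.6% of genes) and for 44 of 59 in Sirt2-/- (16%).

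Without the low-detection libraries, 42 of 60 tested members were higher in WT CD8+ than in WT CD4+ TILs and none was lower, against 14.9% of 15694 genes higher and 13.1% lower. In Sirt2-/- mice 45 of 59 were higher and 1 was lower, against 13.8% of 16703 genes higher and 11.6% lower. Groups did not overlap, with CD8+ higher, for 45 of 60 members in WT (23.7% of genes) and 51 of 59 in Sirt2-/- (20.3%), and the log2 fold change was above 0 for 55 of 60 (50.4%) and 55 of 59 (49.7%). The medians over members were 1.17 and 1.36. With all libraries kept, DESeq2 called 11 members higher and 1 lower in WT, against 8.21% of genes higher and 9.59% lower, and 11 higher and 0 lower in Sirt2-/-, against 4.05% and 4.43%.

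Leaving out single libraries moved the number of calls by edgeR, and with it the number of genes called in either direction. In WT, 15 members were called without CD4+ replicate 1 (17.5% of genes), 3 without CD4+ replicate 2 (8.81%), 0 without CD4+ replicate 3 (7.61%) and 1 without CD4+ replicate 4 (9.15%). There were 12 without CD8+ replicate 1 (11.8%), 0 without CD8+ replicate 2 (6.78%), 2 without CD8+ replicate 3 (7.05%) and 0 without CD8+ replicate 4 (6.58%). In Sirt2-/- mice, 46 were called without CD4+ replicate 4, the fit given above, against 2 without CD4+ replicate 1 (1.42%), 0 without CD4+ replicate 2 (0.769%) and 2 without CD4+ replicate 3 (0.918%). Without CD8+ replicates 1, 2, 3 and 4 there were 1 (0.848%), 1 (0.692%), 0 (0.679%) and 0 (0.734%). The number of calls thus depended on single libraries, low-detection ones and others, while most members had a log2 fold change above 0 both with all libraries and without the low-detection ones.

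**Figure D2:**
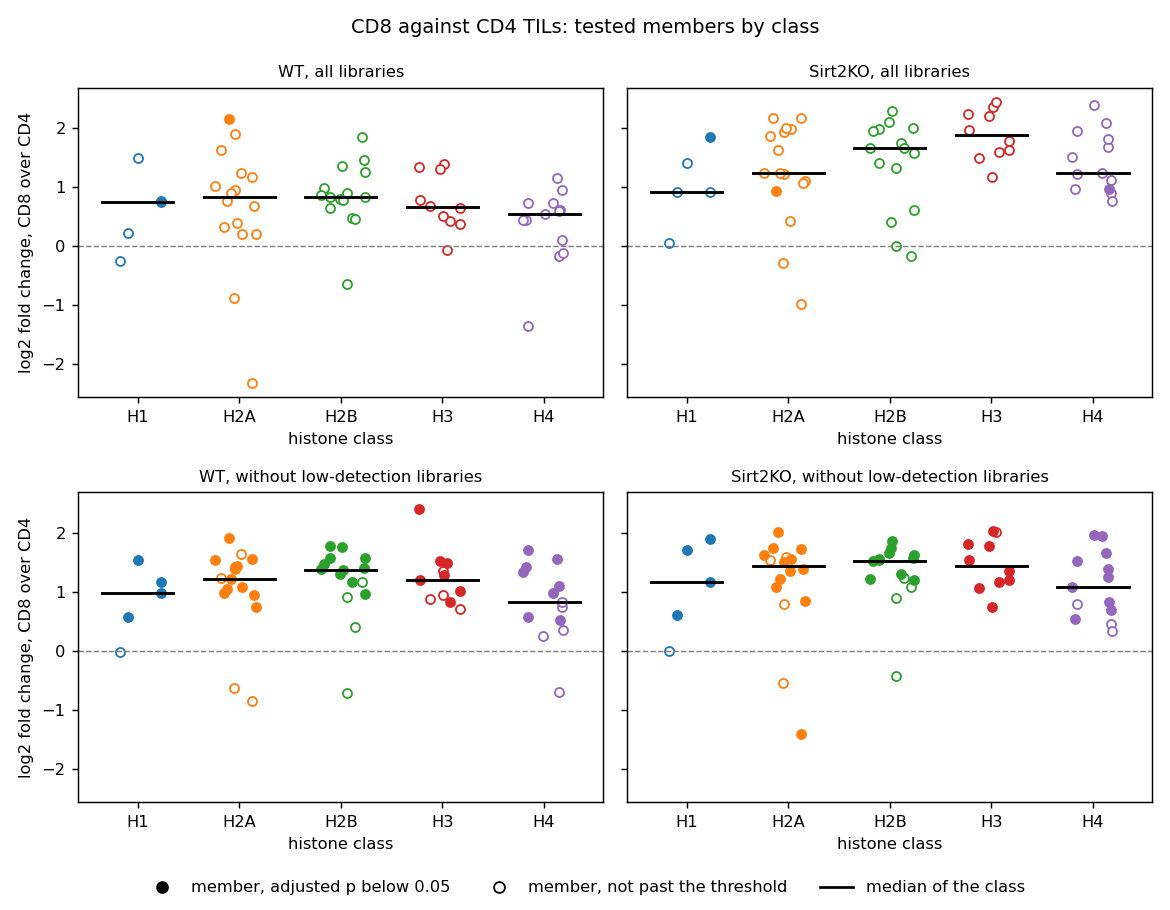
Log2 fold change of CD8+ over CD4+ TILs for each tested member (points) by histone class (x axis), in WT (left) and Sirt2-/- mice (right), with all libraries (top) and without the low-detection libraries (bottom); filled points passed an adjusted p of 0.05 and lines are class medians. Filled points number 2 and 3 in the upper panels and 42 and 46 in the lower panels, and nearly all points lie above 0.

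Of 5 tested H1 members, 4 were higher in CD8+ than CD4+ TILs of either genotype without the low-detection libraries, Hist1h1d, Hist1h1b and Hist1h1e among them, and Hist1h1c passed in none of the fits. Without those libraries, 14.9% of all genes were called higher in WT and 13.8% in Sirt2-/-. Fits with all libraries called 1 of 5 higher in each genotype, against 4.89% and 0.918% of genes. Hist1h1d (ENSMUSG00000052565.7, chr13:23553262-23560686, plus strand) stood at 167, 184, 130.4 and 173 CPM in WT CD4+ and 210.1, 397, 238 and 329 CPM in WT CD8+ libraries. The groups did not overlap, and the log2 fold change was 0.77 (SE 0.20, adjusted p = 0.0264) with all libraries. Among Sirt2-/- libraries its values were 108, 115, 166 and 239 CPM in CD4+ and 243, 238, 412 and 302 CPM in CD8+, where CD4+ replicate 4 reached the lower CD8+ values, and the log2 fold change was 0.92 (SE 0.29, adjusted p = 0.184).

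Hist1h1b (ENSMUSG00000058773.2, chr13:21779883-21780625, minus strand), an H1 gene with no stretch of 100 bases shared with another gene, was called in Sirt2-/- mice with all libraries. It was at 28, 30.5, 53.2 and 43.8 CPM in Sirt2-/- CD4+ and 104, 119, 199 and 146 CPM in Sirt2-/- CD8+ libraries. Every CD8+ value was above every CD4+ value, and the level was 3.63-fold higher, a log2 fold change of 1.86 (SE 0.28, adjusted p = 0.0149). In WT mice it was at 100.2, 84.2, 39.3 and 80.9 CPM in CD4+ and 73, 206, 106 and 150.5 CPM in CD8+. The WT groups overlapped through CD8+ replicate 1, and the log2 fold change was 0.75 (SE 0.32, adjusted p = 0.178) with all libraries and 1.17 (SE 0.29, adjusted p = 0.0113) without the low-detection libraries.

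Hist1h1c (ENSMUSG00000036181.2, chr13:23738808-23740367, plus strand), the most abundant member, stood at 629, 605, 528 and 605 CPM in WT CD4+ and 673, 554, 586 and 535 CPM in Sirt2-/- CD4+ libraries. In CD8+ libraries it was at 359, 645, 458 and 616 CPM in WT and 639, 640.1, 686 and 503 CPM in Sirt2-/-. The 4 groups overlapped. The log2 fold change of CD8+ over CD4+ was -0.26 (SE 0.17, adjusted p = 0.406) in WT and 0.059 (SE 0.14, adjusted p = 0.998) in Sirt2-/-, and -0.023 (SE 0.13, adjusted p = 0.928) and -0.0038 (SE 0.12, adjusted p = 0.987) without the low-detection libraries. Since most other members were higher in CD8+, its share of the summed member CPM was 30.6% ± 3.42 and 36.6% ± 3.76 in WT and Sirt2-/- CD4+ against 19.3% ± 1.61 and 20.6% ± 3.23 in CD8+ (SD, n = 4). Hist1h1e, at 228 to 324 CPM in WT CD4+, had log2 fold changes of 0.57 (adjusted p = 0.0151) in WT and 0.61 (adjusted p = 0.00761) in Sirt2-/- without the low-detection libraries and 0.22 (adjusted p = 0.597) and 0.92 (adjusted p = 0.423) with all libraries. Part of its locus lies inside that of Hist1h2be (chr13:23583670-23621124, minus strand).

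**Figure D3:**
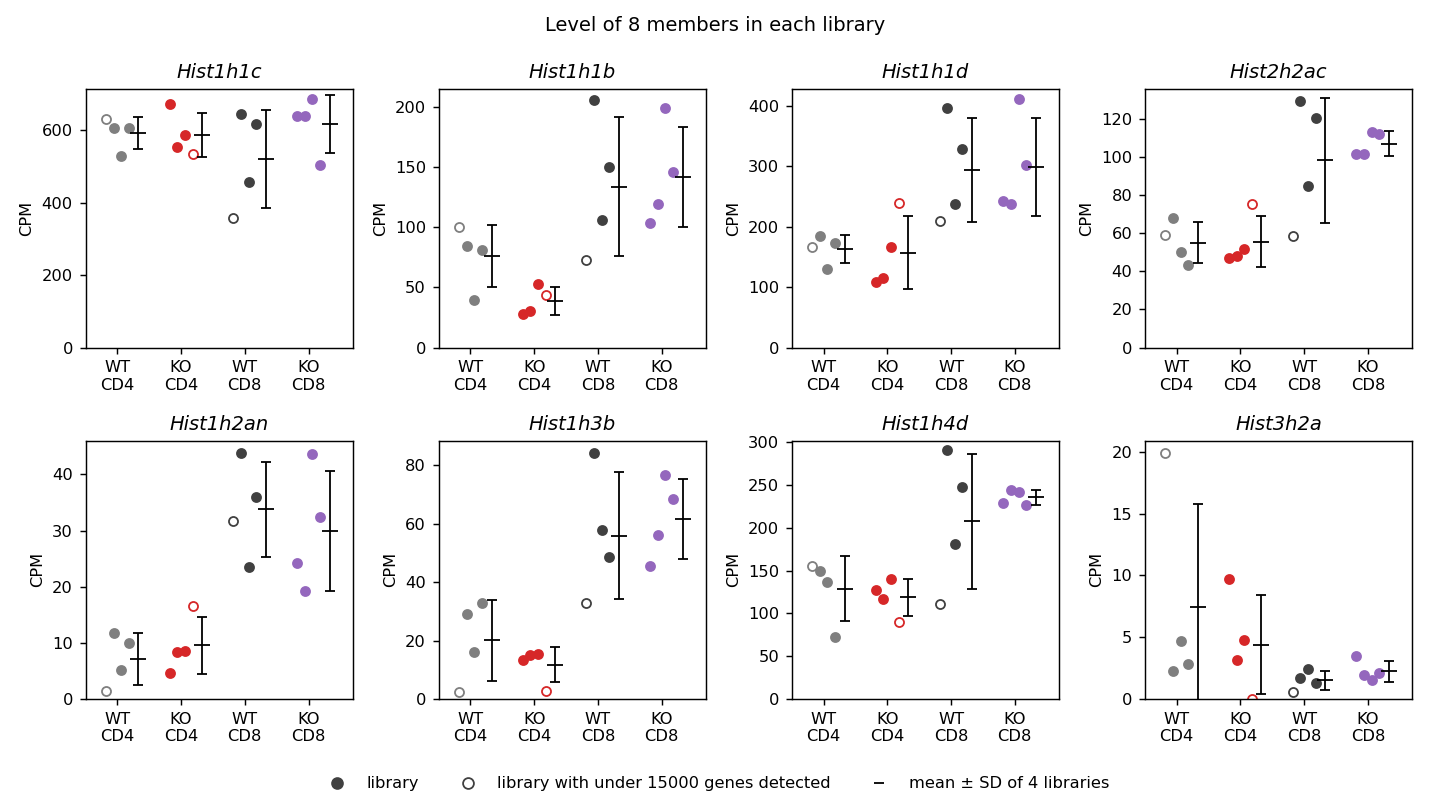
CPM (y axis, from 0, a different range in each panel) of 8 members in each library (points, open for libraries with under 15000 genes detected) of the 4 groups, with the mean and SD of 4 libraries beside the points. Hist1h1c overlaps between all groups, Hist1h1b, Hist2h2ac and Hist1h4d are higher in each Sirt2-/- CD8+ library than in each Sirt2-/- CD4+ library, and Hist3h2a is the panel in which CD4+ libraries hold the highest values.

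In class H2A, whose proteins pair with H2B in the nucleosome, 12 of 16 tested members were higher in WT CD8+ and 11 of 16 in Sirt2-/- CD8+ without the low-detection libraries, with class medians of 1.23 and 1.45. The shares over all genes were 14.9% and 13.8%. Fits with all libraries called 1 of 16 higher in each genotype (4.89% and 0.918% of genes), with medians of 0.83 and 1.25. Hist2h2ac (ENSMUSG00000068855.3, chr3:96220361-96220880, minus strand) carries the only H2A stem-loop that reads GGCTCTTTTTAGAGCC among those matched. It was at 47, 48.2, 51.5 and 75.5 CPM in Sirt2-/- CD4+ and 101, 102, 113 and 112 CPM in Sirt2-/- CD8+ libraries, without overlap, with a log2 fold change of 0.94 (SE 0.18, adjusted p = 0.0374). In WT mice it was at 58.9, 67.7, 49.9 and 43.3 CPM in CD4+ and 58.5, 129, 84.6 and 121 CPM in CD8+. There CD8+ replicate 1 fell among the CD4+ libraries, and the log2 fold change was 0.77 (SE 0.24, adjusted p = 0.0668) with all libraries and 1.05 (SE 0.19, adjusted p = 0.0025) without the low-detection libraries.

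Hist1h2an (ENSMUSG00000069309.2, chr13:21786826-21787218, minus strand) had the largest fold among the members called with all libraries. It stood at 1.5, 11.9, 5.21 and 10.05 CPM in WT CD4+ and 31.6, 43.9, 23.6 and 36.1 CPM in WT CD8+ libraries. The lowest CD8+ library was above the highest CD4+ library, the level was 4.46-fold higher, and the log2 fold change was 2.16 (SE 0.52, adjusted p = 0.0209). In Sirt2-/- libraries it was at 4.7, 8.36, 8.61 and 16.6 CPM in CD4+ and 24.2, 19.3, 43.7 and 32.4 CPM in CD8+, again without overlap, with a log2 fold change of 1.64 (SE 0.57, adjusted p = 0.246). Of its 100-base windows, 83.3% are shared with other genes, so its counts are uncertain as those of a single gene. Hist1h2ak and Hist1h2af, the other abundant H2A members, had log2 fold changes of 0.96 (adjusted p = 0.00213) and 1.54 (adjusted p = 0.00225) in WT and 1.39 (adjusted p = 0.00369) and 1.63 (adjusted p = 0.00102) in Sirt2-/- without the low-detection libraries. With all libraries neither was called, at 0.68 (adjusted p = 0.0523) and 1.03 (adjusted p = 0.0924) in WT and 1.06 (adjusted p = 0.204) and 1.25 (adjusted p = 0.175) in Sirt2-/-.

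Hist3h2a (ENSMUSG00000078851.4, chr11:58954685-58956830, plus strand), an H2A gene outside the large clusters, was below 0 in both genotypes. It stood at 9.67, 3.19, 4.77 and 0 CPM in Sirt2-/- CD4+ and 3.48, 1.97, 1.52 and 2.07 CPM in Sirt2-/- CD8+ libraries. The 0 was the low-detection library. Without it, the log2 fold change of CD8+ over CD4+ was -1.41 (SE 0.44, adjusted p = 0.0356), called lower by edgeR, although Sirt2-/- CD8+ replicate 1 lay above Sirt2-/- CD4+ replicate 2. With all libraries it was -0.99 (SE 1.42, adjusted p = 0.998). In WT mice it was at 19.9, 2.27, 4.72 and 2.83 CPM in CD4+ and 0.575, 1.72, 2.47 and 1.27 CPM in CD8+, where CD4+ replicate 1, a low-detection library, held the highest value, and the log2 fold change was -2.34 (SE 0.83, adjusted p = 0.102) with all libraries and -0.85 (SE 0.47, adjusted p = 0.212) without the low-detection ones. DESeq2 called it lower in WT with all libraries (log2 fold change -2.35, adjusted p = 0.0175).

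In class H2B, 11 of 15 tested members were higher in CD8+ than CD4+ TILs of either genotype without the low-detection libraries, with class medians of 1.38 in WT and 1.53 in Sirt2-/-. The shares over all genes were 14.9% and 13.8%. Fits with all libraries called 0 of 15 in each genotype (4.89% and 0.918% of genes were higher), with medians of 0.84 and 1.66. Hist1h2bb (ENSMUSG00000075031.4, chr13:23746734-23747241, plus strand) was at 46.7, 29.2, 17.4 and 8.25 CPM in WT CD4+ and 24, 70.5, 37 and 57.3 CPM in WT CD8+. The WT groups overlapped through replicate 1 of both cell types. For the Sirt2-/- groups it was at 10.6, 16, 28.6 and 27.3 CPM in CD4+ and 40.7, 54.2, 73.7 and 51 CPM in CD8+, without overlap. The log2 fold changes without the low-detection libraries were 1.58 (SE 0.38, adjusted p = 0.0105) and 1.54 (SE 0.35, adjusted p = 0.0132), and with all libraries 0.84 (adjusted p = 0.314) and 1.41 (adjusted p = 0.12). Hist1h2be and Hist1h2bn, the other abundant H2B members, had log2 fold changes of 0.96 (adjusted p = 0.0167) and 1.39 (adjusted p = 0.00896) in WT and 1.20 (adjusted p = 0.00394) and 1.23 (adjusted p = 0.00259) in Sirt2-/- without the low-detection libraries. With all libraries neither was called, at 0.83 (adjusted p = 0.0881) and 0.87 (adjusted p = 0.166) in WT and 0.62 (adjusted p = 0.759) and 1.66 (adjusted p = 0.783) in Sirt2-/-.

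Class H3, whose tails carry many of the best-known histone marks, had 7 of 11 tested members higher in WT CD8+ and 9 of 10 in Sirt2-/- CD8+ without the low-detection libraries. The class medians were 1.20 and 1.45, and the shares over all genes were 14.9% and 13.8%. Fits with all libraries called 0 of 10 in each genotype (4.89% and 0.918% of genes were higher), with medians of 0.67 and 1.88. Hist1h3b (ENSMUSG00000069267.2, chr13:23752267-23752886, plus strand) was at 13.5, 15, 15.6 and 2.94 CPM in Sirt2-/- CD4+ and 45.4, 56.3, 76.5 and 68.5 CPM in Sirt2-/- CD8+. The groups did not overlap, and without replicate 4 of the CD4+ group the level was 4.1-fold higher in CD8+, a log2 fold change of 2.03 (SE 0.18, adjusted p = 3.95e-05). With all libraries the log2 fold change was 2.37 (SE 0.52, adjusted p = 0.0605). In WT mice it was at 2.43, 29.3, 16.1 and 32.7 CPM in CD4+ and 32.8, 84.4, 57.9 and 48.7 CPM in CD8+, where the lowest CD8+ value just exceeded the highest CD4+ value, and the log2 fold change was 1.39 (SE 0.59, adjusted p = 0.175) with all libraries and 1.28 (SE 0.27, adjusted p = 0.00481) without the low-detection ones.

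Hist1h3e, the H3 member with the highest CPM, stood at 40.9, 30.7, 28.9 and 34.4 CPM in WT CD4+ and 21.3, 64.9, 47.4 and 56.2 CPM in WT CD8+, with the low-detection CD8+ replicate 1 below all 4 CD4+ libraries. In Sirt2-/- mice it was at 25.2, 25.8, 23.1 and 0.0179 CPM in CD4+, where replicate 4 held a single count, and 46.5, 66.5, 61.2 and 52.8 CPM in CD8+. Without the low-detection libraries the groups did not overlap in either genotype, and the log2 fold changes were 0.84 (SE 0.15, adjusted p = 0.0022) in WT and 1.17 (SE 0.14, adjusted p = 0.000209) in Sirt2-/-, against 0.42 (adjusted p = 0.432) and 1.59 (adjusted p = 0.803) with all libraries. Hist1h3f had log2 fold changes of 0.71 (adjusted p = 0.0513) and 1.21 (adjusted p = 0.000338) without the low-detection libraries and 0.37 (adjusted p = 0.66) and 1.64 (adjusted p = 0.84) with all. Hist1h3a, singled out after its values were seen as the highest point among WT members, had a log2 fold change of 2.42 (SE 0.42, adjusted p = 0.00172) without the low-detection libraries and 1.35 (SE 0.61, adjusted p = 0.207) with all.

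In class H4, whose genes encode one and the same protein, 8 of 13 tested members were higher in WT CD8+ and 10 of 13 in Sirt2-/- CD8+ without the low-detection libraries, with class medians of 0.83 and 1.08. The shares over all genes were 14.9% and 13.8%. Fits with all libraries called 0 of 13 in WT and 1 of 13 in Sirt2-/- (4.89% and 0.918% of genes were higher), with medians of 0.54 and 1.24. Hist1h4d (ENSMUSG00000061482.7, chr13:23581598-23582735, plus strand) has no 100-base window in common with another gene. It was at 128, 117, 141 and 89.8 CPM in Sirt2-/- CD4+ and 229, 245, 241 and 227 CPM in Sirt2-/- CD8+, groups that did not overlap, with a log2 fold change of 0.97 (SE 0.15, adjusted p = 0.0186). In WT mice it was at 155, 150.0, 137 and 72.9 CPM in CD4+ and 111, 291, 181 and 248 CPM in CD8+. CD8+ replicate 1 again lay among the CD4+ values, and the log2 fold change was 0.62 (SE 0.30, adjusted p = 0.228) with all libraries and 0.99 (SE 0.25, adjusted p = 0.0124) without the low-detection ones.

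The direction of Hist1h4h in WT depended on which libraries were kept. It stood at 55.6, 24, 18.7 and 22.1 CPM in WT CD4+ and 13.4, 39, 25 and 33.2 CPM in WT CD8+, and the highest value was the low-detection CD4+ replicate 1. Its WT log2 fold change was -0.18 (SE 0.39, adjusted p = 0.843) with all libraries and 0.58 (SE 0.19, adjusted p = 0.0433) without the low-detection ones, a change of direction. Among Sirt2-/- libraries it was at 13.9, 13.6, 14.2 and 0 CPM in CD4+ and 30.3, 39.3, 34.2 and 33.2 CPM in CD8+, without overlap, and the log2 fold change without CD4+ replicate 4 was 1.27 (SE 0.13, adjusted p = 0.00012), against 1.69 (adjusted p = 0.822) with it. Hist1h4k, the H4 member with the next highest CPM after Hist1h4d, had log2 fold changes of 1.34 (adjusted p = 0.00301) in WT and 1.53 (adjusted p = 0.000754) in Sirt2-/- without the low-detection libraries, and 0.74 (adjusted p = 0.282) and 1.96 (adjusted p = 0.746) with all.

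The annotated transcript after the coding part, stop codon included, ranged from 3 to 4934 bases with a median of 97, and a limit of 300 bases, chosen after the values were seen, parted 45 members from 22. Without the low-detection libraries, the median log2 fold change of CD8+ over CD4+ was 1.34 in WT for the 41 tested members at or under the limit, of which 31 were called higher, and 0.74 for the 19 over it, of which 11 were higher. Log2 fold changes above 0 were found for 40 of the 41 and 15 of the 19. For the Sirt2-/- groups the medians were 1.54 for 41 members, with 32 higher, and 0.85 for 18 members, with 13 higher and 1 lower. With all libraries the medians were 0.87 and 0.40 in WT and 1.67 and 1.04 in Sirt2-/-. In those fits 1 and 1 members were called higher in WT, and 2 and 1 in Sirt2-/-. Over all genes, 14.9% were called higher in WT and 13.8% in Sirt2-/- without the low-detection libraries, and 4.89% and 0.918% with all. This is a description of members that share sequence and libraries, and was not tested.

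Hist1h1c has 883 annotated bases after its coding part, Hist3h2a 1703, Hist2h2be 2195 and Hist4h4 2518. Hist2h2be and Hist4h4 were singled out after their values were seen. Hist2h2be, an H2B gene on chromosome 3, was at 0, 4.23, 3.81 and 6.59 CPM in WT CD4+ and 1.03, 2.54, 2.72 and 3.67 CPM in WT CD8+, with a log2 fold change of -0.72 (SE 0.36, adjusted p = 0.174) without the low-detection libraries and -0.43 (adjusted p = 0.346) in Sirt2-/-. With all libraries these values were -0.64 (adjusted p = 0.806) and 0.0025 (adjusted p = 1). Hist4h4, the H4 gene on chromosome 6, had log2 fold changes of 0.25 (adjusted p = 0.531) in WT and 0.34 (adjusted p = 0.274) in Sirt2-/- without the low-detection libraries, and -0.13 (adjusted p = 0.875) and 0.76 (adjusted p = 0.998) with all. Length did not part the members cleanly. Hist1h1d, with 4934 annotated bases after its coding part, was called higher in CD8+ in both genotypes without the low-detection libraries, and in WT only with all. Hist2h2aa2, a short member also singled out afterwards, had log2 fold changes of -0.63 (adjusted p = 0.604) and -0.55 (adjusted p = 0.563) without the low-detection libraries, and -0.89 (adjusted p = 0.654) and -0.29 (adjusted p = 0.998) with all. Both the stem-loop of Hist1h1c and that of Hist3h2a, printed above, have the same 16 letters as that of Hist1h3b. Hist4h4 has the same 16 letters as Hist1h4d, but no stem-loop match was found in the annotated transcript of Hist2h2be.

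**Figure D4:**
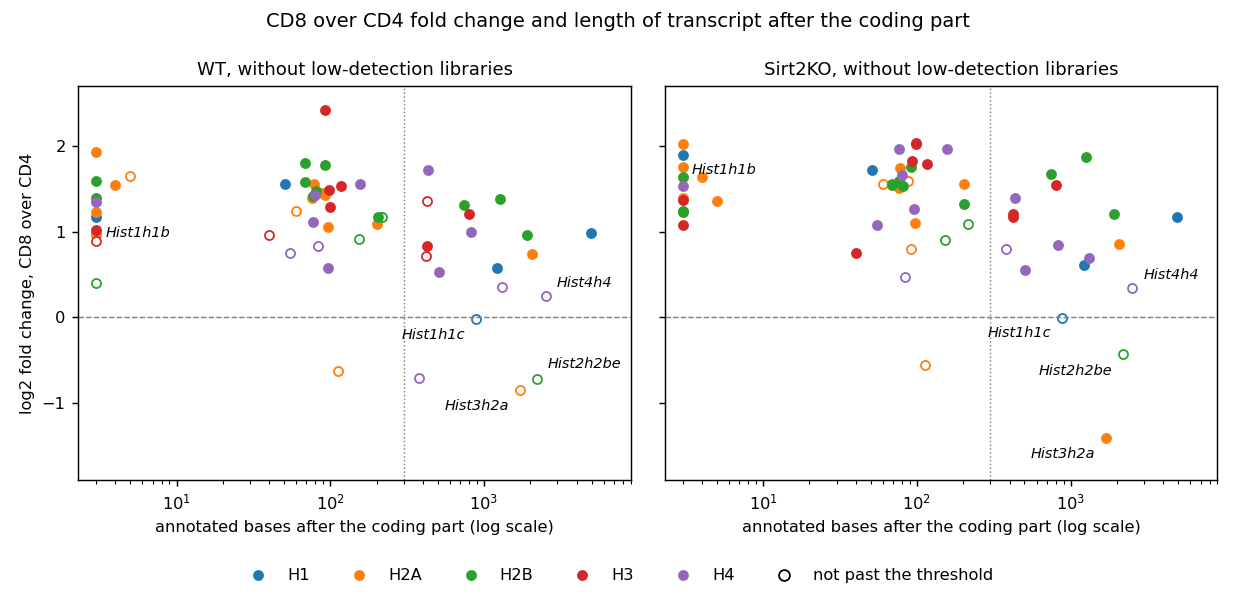
Log2 fold change of CD8+ over CD4+ TILs (y axis) without the low-detection libraries against the annotated bases after the coding part (x axis, log scale) for each tested member, coloured by class, filled where the adjusted p was below 0.05, in WT (left) and Sirt2-/- mice (right). The dotted line marks 300 bases, and the highest members lie to its left. To its right, Hist1h1c, Hist4h4, Hist2h2be and Hist3h2a lie near or below 0 in both panels. Hist1h4i lies below 0 in WT only, and most members to the right of the line lie above 0.

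Genes of the same pathway were taken from lists chosen with earlier results of these data known. Of 32 S phase genes, which serve DNA copying, 19 were higher in WT CD8+ than WT CD4+ TILs with all libraries and 30 without the low-detection ones, and none was lower. In Sirt2-/- mice 4 and 30 of 32 were higher. Of all genes, 4.89% and 14.9% were called higher in these fits in WT, and 0.918% and 13.8% in Sirt2-/-. Their median log2 fold changes were 1.29 and 1.42 in WT and 1.78 and 1.57 in Sirt2-/-. Examples in WT with all libraries were Mcm5, a subunit of the replicative helicase, at 1.55 (adjusted p = 0.00442), Rrm1, a subunit of ribonucleotide reductase, at 1.22 (adjusted p = 0.00424), and Pcna, the sliding clamp, at 0.88 (adjusted p = 0.00692). Among Sirt2-/- libraries Pcna was at 0.98 (adjusted p = 0.0342) and Mcm6 at 1.02 (adjusted p = 0.0226).

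Of 20 G2/M genes, 2 were higher in WT CD8+ with all libraries (4.89% of all genes) and 12 without the low-detection ones (14.9%). In Sirt2-/- CD8+ these counts were 0 (0.918%) and 12 (13.8%). Top2a, the topoisomerase of dividing cells, was at 1.13 (adjusted p = 0.0127) in WT, while Mki67, a general marker of proliferation, was at 0.17 (adjusted p = 0.781) in WT and 0.28 (adjusted p = 0.998) in Sirt2-/-. Summed CPM of the 32 S phase genes was 936 to 1339 in WT CD4+ and 1885 to 3319.6 in WT CD8+, and 899.7 to 1216 and 2118 to 3358 in Sirt2-/-, ranges that did not overlap between the cell types. The sums of the 20 G2/M genes overlapped, at 762 to 1423 and 1229 to 2476 in WT.

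Of 20 genes for transcription and processing of histone mRNA, 3 were higher in WT CD8+ with all libraries and 9 without the low-detection ones. In Sirt2-/- CD8+ 0 and 8 were higher, and none was lower in either genotype. The shares of all genes called higher were 4.89% and 14.9% in WT and 0.918% and 13.8% in Sirt2-/-. Slbp, which binds the stem-loop, was at 0.80 (SE 0.19, adjusted p = 0.018) in WT and 1.13 (SE 0.26, adjusted p = 0.078) in Sirt2-/- with all libraries, and at 0.89 (adjusted p = 0.00103) and 0.91 (adjusted p = 0.000523) without the low-detection ones. Cpsf3, the nuclease that cuts the histone pre-mRNA, was at 0.67 (adjusted p = 0.0173) and Ncbp2, a cap-binding subunit, at 0.99 (adjusted p = 0.0265) in WT, and Npat, the coactivator of histone transcription, was at 0.56 (adjusted p = 0.183) in WT and 0.65 (adjusted p = 0.998) in Sirt2-/-. Of 15 histone chaperones, 6 and 11 were higher in WT and 1 and 11 in Sirt2-/- in the same fits, with the same shares over all genes. Chaf1a, a subunit of the complex that places H3 and H4 on new DNA, was at 1.82 (adjusted p = 0.00189) in WT, and Rbbp7, a histone-binding subunit of several complexes, at 0.77 (adjusted p = 0.0111) in WT and 0.84 (adjusted p = 0.0169) in Sirt2-/-.

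Genes listed as replication-independent histone genes, most of whose mRNAs carry poly(A) tails, had few calls, in both directions. Of 10 tested, 1 was higher and 1 lower in WT CD8+ with all libraries (4.89% and 6.96% of genes). Without the low-detection ones, 3 were higher and 2 lower (14.9% and 13.1%). For the Sirt2-/- groups none was higher and 1 was lower with all libraries (0.918% and 1.32%), and 3 were higher and 1 lower without (13.8% and 11.6%). H1f0, the linker histone of resting cells, was lower in CD8+ at -2.46 (SE 0.29, adjusted p = 0.000342) in WT and -2.12 (SE 0.36, adjusted p = 0.0255) in Sirt2-/-, and H2afx, which marks DNA breaks when phosphorylated, was higher in WT at 1.07 (adjusted p = 0.0329). The variants H3f3b and H2afz were at -0.37 (adjusted p = 0.12) and -0.088 (adjusted p = 0.8) in WT and -0.11 (adjusted p = 0.998) and -0.028 (adjusted p = 0.998) in Sirt2-/-. The median over the list with all libraries was -0.11 in WT and 0.050 in Sirt2-/-, against 0.74 and 1.59 over the replication-dependent members. Without the low-detection ones it was 0.24 and 0.16, against 1.17 and 1.36, so the WT median changed sign.

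Markers of other cells were present as well. The summed CPM of 8 melanocyte genes of the tumor line was 5.5 to 98.4 in WT CD4+, 10.1 to 81.5 in Sirt2-/- CD4+, 4.15 to 11.4 in WT CD8+ and 7.21 to 15.8 in Sirt2-/- CD8+, with the highest values in WT CD4+ replicate 1 and Sirt2-/- CD4+ replicate 4. The sum of 4 stromal genes was 95 to 116, 64.5 to 179, 36.2 to 48.2 and 40.6 to 102 CPM in the same order, and the sum of 10 myeloid genes was 1.5 to 15.3, 6.84 to 34.2, 2.24 to 9.07 and 9.02 to 37.9 CPM. Markers of B cells, NK cells and erythroid cells summed to at most 13.7 CPM in any library. No marker of the melanocyte, stromal or myeloid lists was at 0 throughout a group. The tumor cells also divide, and the part of these cells in the histone levels was not tested.

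No tested member passed correction between Sirt2-/- and WT CD4+ TILs. With all libraries, 0 of 58 members were called by edgeR (0% of 15070 genes) and 0 by DESeq2 (0.0464% of genes). At an unadjusted p under 0.05, 1 member passed, Hist1h1b (1.26% of genes). The log2 fold change was above 0 for 11 of 58 members (42.0% of genes), the median was -0.73 against -0.11 over all genes, and 5 members were lower in Sirt2-/- without overlap (1.82% of genes). By class the medians were -0.058 for H1, -0.17 for H2A, -0.29 for H2B, -0.86 for H3 and -0.75 for H4. In these libraries 37 members were at 0 in Sirt2-/- replicate 4, which enters that group.

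Without the low-detection libraries the median moved closer to 0. It was -0.29 against -0.0016 over all genes, 12 of 58 members were above 0 (49.8% of genes), and edgeR called 0 of 58 (0.0374% of 16034 genes). Lower in Sirt2-/- at an unadjusted p under 0.05 were 5 members (1.75% of genes), and 8 were lower without overlap (5.15%). The 5 were Hist1h4f (-0.98, adjusted p = 0.557), Hist1h3b (-0.82, adjusted p = 0.788), Hist1h4h (-0.63, adjusted p = 0.788), Hist1h4i (-1.28, adjusted p = 0.951) and Hist1h1b (-0.87, adjusted p = 0.966), of which Hist1h4f and Hist1h4i were named after their values were seen. The class medians were -0.19, -0.25, -0.18, -0.36 and -0.37 for H1, H2A, H2B, H3 and H4, and summed CPM in Sirt2-/- was 0.911-fold that in WT for all members.

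Hist1h1b was the member with the smallest p in CD4+ TILs with all libraries. Its 4 Sirt2-/- values, between 28 and 53.2 CPM, were below the WT values of 80.9 CPM and more in 3 libraries and overlapped with the 39.3 CPM of WT replicate 3. The level was 0.514-fold that in WT, a log2 fold change of -0.96 (SE 0.34, adjusted p = 1) by edgeR. Hist1h2ah, with the smallest p among members above 0, had a log2 fold change of 1.23 (SE 1.21, adjusted p = 1), which was 0.29 without Sirt2-/- replicate 4. The S phase genes had a median of -0.12 with all libraries and -0.21 without the low-detection ones, and the G2/M genes of -0.40 in the latter. None of the genes in the 5 pathway lists was called in either comparison of genotypes.

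In CD8+ TILs no tested member passed correction either. With all libraries, 0 of 59 members were called by edgeR (0.00654% of 15302 genes, which is Sirt2 alone) or by DESeq2 (0.183% of genes), and 0 members passed an unadjusted p of 0.05 (3.78% of genes). The log2 fold change was above 0 for 46 of 59 members (51.9% of genes) with a median of 0.13. This side was not kept without WT replicate 1: then 20 of 59 were above 0 (51.7% of 15943 genes), the median was -0.054, and again 0 were called (0.0439%) and 0 passed the unadjusted threshold (4.18%). Summed CPM in Sirt2-/- was 1.1-fold that in WT with all libraries and 0.978-fold without that library. The smallest p in each direction belonged to Hist1h2ah, at 0.36 (SE 0.23, adjusted p = 0.986), and Hist3h2ba, at -0.59 (SE 0.40, adjusted p = 0.986).

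**Figure D5:**
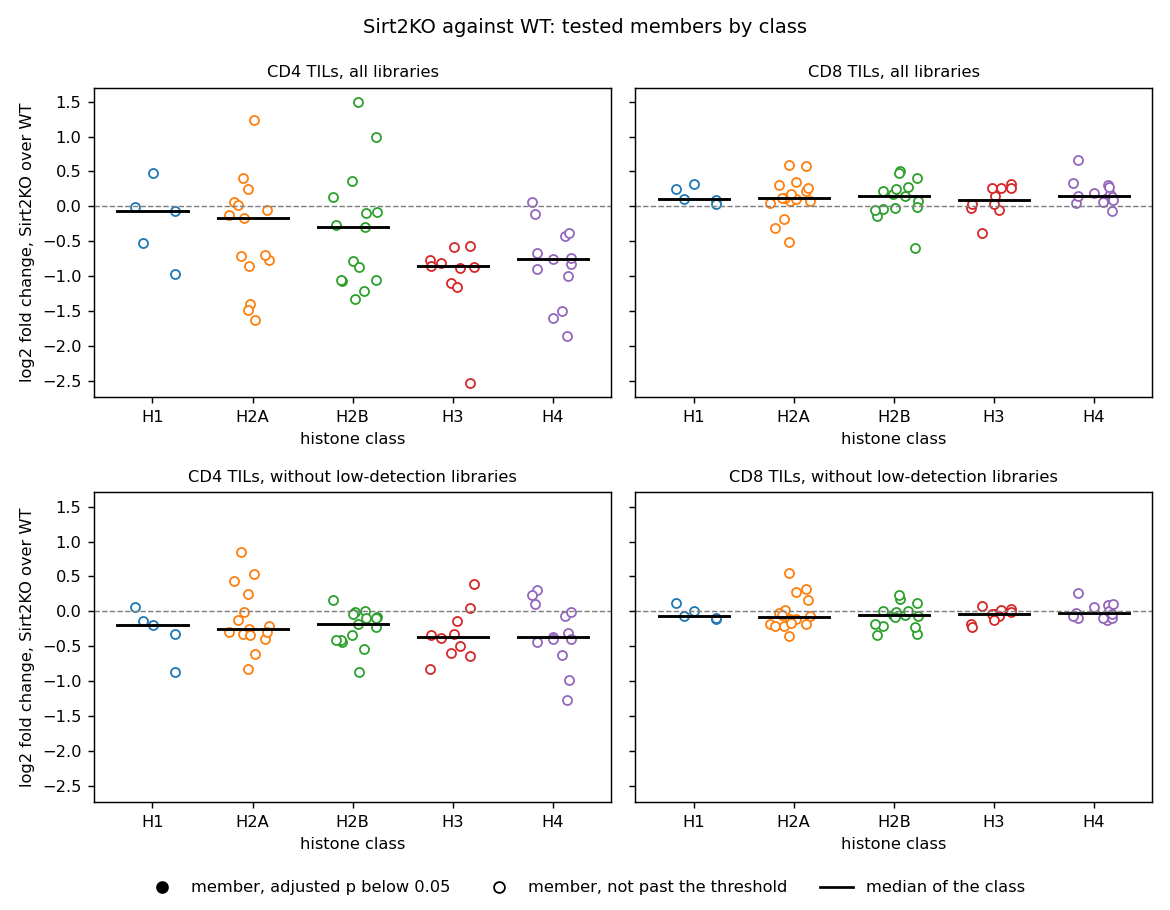
Log2 fold change of Sirt2-/- over WT for each tested member (points, all open since none passed an adjusted p of 0.05) by histone class (x axis), in CD4+ (left) and CD8+ TILs (right), with all libraries (top) and without the low-detection libraries (bottom); lines are class medians. In CD4+ TILs the H3 and H4 medians move from -0.86 and -0.75 to -0.36 and -0.37 when those libraries are left out, and in CD8+ TILs the medians stay near 0.

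Whether the difference between CD8+ and CD4+ TILs itself differed between genotypes was tested in a fit of all 16 libraries. No member was called, 0 of 60 with all libraries (0% of 17270 genes, and 0.0116% by DESeq2) and 0 of 60 without the low-detection ones (0% of 17993 genes). The difference was larger in Sirt2-/- mice for 51 of 60 members (58.2% of genes) with a median of 0.85, and for 47 of 60 (52.9%) with a median of 0.18 without those libraries. At an unadjusted p under 0.05, Hist1h1b passed in edgeR with all libraries (unadjusted p = 0.0367, adjusted p = 1, 1.98% of genes), and 4 members, Hist1h4h, Hist1h4f, Hist1h4i and Hist1h3b, passed without the low-detection libraries (3.69%).

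The members known from the germline were near 0. Hist1h1t, the testis linker histone, held 0 to 10 counts a library, with counts in 7 libraries. Hist1h2aa held 30 counts in Sirt2-/- CD4+ replicate 1 and 0 in the other 15 libraries, and Hist1h2ba held 7 and 11 counts in Sirt2-/- CD4+ replicates 1 and 3 and 4 in WT CD4+ replicate 3. None passed the filter on low counts. The others that passed in no comparison were Hist2h2aa1, Hist1h2bq, Hist1h2br, Hist2h3c1, which was at 0 in all 16 libraries, and Hist2h3c2, and Hist1h2ap was tested in 3 of the 4 comparisons. Where a gene was at 0, up to 3 counts in a library are allowed by counting error alone, and nearly identical copies may have taken or lost reads in the counting.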

How the data were processed

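The deposited file held raw counts per gene, made by the authors with STAR and HTSeq on mm10, per the labels, with versions, strand setting and handling of reads with several matches not given in the sources used here. Libraries came from 1 ng of total RNA with a stranded kit that depletes ribosomal RNA (read pairs of 100 bases). All 55450 gene identifiers matched GENCODE M21 (GRCm38), which gave coordinates, transcripts and stem-loops, and RefSeq gave the promoters. No deposited column was left without a sample.

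Groups came from the sample labels. Genes past edgeR's filterByExpr (minimum count 10, minimum total 15) were fitted by robust quasi-likelihood with TMM factors (edgeR 4.0.16, R 4.3.3) in each of 4 comparisons of 2 groups, and the interaction was fitted on all 16 libraries, with Benjamini-Hochberg adjustment over all genes tested and a threshold of 0.05. Group sums and single levels are TMM-scaled CPM. The fits were checked on simulated counts with the same dispersion for all genes and no low-detection library. That check therefore does not show how the fits behave with such libraries. DESeq2 1.42.0, other size factors, no filter, a replicate block, leaving out single libraries and leaving out the libraries with under 15000 genes were alternatives. Nothing in the labels says that libraries with the same number came from 1 mouse or batch, and the p-values cover only the spread between these libraries. No pair of libraries of a group agreed within sampling noise (chi-square per degree of freedom 24.3 or more).

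Named members were the 3 with the highest CPM of each class, those called with all libraries, those with the smallest p in each direction of a comparison, and 3 germline genes. From the other lists, up to 5 called genes were named, with Slbp, Npat, Pcna, Mki67, H2afz and H3f3b. The members and lists were chosen with earlier results of these data known.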

Additional observations from a re-analysis of the deposited data

Results flagged for a closer look

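In 11 of 116 sets of 4 values, a single library stood apart from its group beyond the 95% limit of Dixon's test, where chance alone gives 5.8. Of these, 6 were Sirt2-/- CD4+ replicate 4, the library with the fewest genes detected. It held 30 members with a count against 61 to 63 in the others of its group, and 0 CPM of Hist1h4h, 0.0179 CPM of Hist1h3e and 2.94 CPM of Hist1h3b, each below the rest, but 75.5 CPM of Hist2h2ac and 11.3 CPM of Hist3h2ba, each above the rest. WT CD4+ replicate 1, also of low detection, held the highest Hist1h4h (55.6 CPM) and Hist3h2a (19.9 CPM) of its group. Sirt2-/- CD8+ replicate 3, with no shortage of genes detected, held the highest summed H1 level (1803 CPM), Hist1h1e (444 CPM) and Hist1h3f (40.1 CPM) of its group.

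The 3 pseudogenes with histone names, which enter no comparison, had counts above the 3 that a count of 0 allows: Hist3h2bb-ps reached 114 counts in a library, Hist1h2aj 99 and Hist1h2al 9.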

How the results depend on the processing

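The count of called members between CD8+ and CD4+ TILs depended on the processing most. In WT, where 2 members were called, DESeq2 gave 12, no filter on low counts 8 (6.95% of genes), leaving out the low-detection libraries 42, and leaving out single libraries 0 to 15. In Sirt2-/-, where 3 were called, DESeq2 gave 11, leaving out the low-detection library 46, and leaving out single libraries 0 to 46. The replicate block gave 3 members in WT (10.9% of genes), 1 in Sirt2-/- (0.684%) and 0 in the other comparisons. Deviations of same-numbered libraries from their group means correlated at 0.067 to 0.119 between cell types in WT, -0.014 to 0.133 in Sirt2-/- and -0.072 to 0.077 between genotypes. Not every pair was over 0.1 in any comparison, so the block was not used, and whether a number marks a shared mouse was not tested. Without the low-detection libraries, the median over members moved to 1.17 for CD8+ over CD4+ in WT and to 0.18 for the interaction. The WT log2 fold change of Hist1h4h turned from -0.18 to 0.58 without the low-detection libraries, 0.35 without CD4+ replicate 1 and 0.094 without CD8+ replicate 1 (range over single libraries -0.34 to 0.35). That of Hist1h1c in Sirt2-/- turned from 0.059 to -0.0038 without CD4+ replicate 4 (range -0.0038 to 0.15). The cause was not tested. All 264 alternatives for the summed levels, other scalings included, moved the log2 ratio by less than the spread between replicates, which is not a test of stability. Without the low-detection libraries, the log2 ratio of CD8+ over CD4+ for all members moved from 0.49 to 0.76 in WT. In Sirt2-/- it moved from 0.91 to 0.86. The H3 ratio of Sirt2-/- over WT in CD4+ TILs moved from -0.90 to -0.40. The small ratio of Sirt2-/- over WT in CD8+ still changed sign without WT CD8+ replicate 1, for all members (0.14 to -0.032) and in each class. Counts of near-identical copies, 4 libraries a group and the low-detection libraries limit the precision.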
